A study of Mus musculus with 48 samples.

Results

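Bpifb1, Lgals2, Cym, Car7, Clic6 and Fabp2 are 6 of the 37583 genes in the deposited expression table of mouse liver. They were selected on their expression values, which were higher in livers without C/EBPα, so the difference between those livers and wild type (WT) is described here and not tested. Several of them are known from the linings of the gut or the airway. The study followed the binding of 2 liver transcription factors through development and measured RNA in livers that lacked either one. Binding sites of C/EBPα and HNF4α were mapped by ChIP-seq, the sequencing of DNA recovered with an antibody to each factor, in 2 replicates at 5 stages named by embryonic (E15.5, E18.5) or postnatal day (P0.5, P14, P60). RNA was sequenced in 3 WT, 3 C/EBPαKO and 2 HNF4αKO liver libraries.

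The mice were F1 (C57Bl6/CBA) animals without treatment, described as age-matched males. The C/EBPαKO genotype is given as C/EBPa lox/lox with Alfp-Cre and the HNF4αKO genotype as HNF4a lox/lox with Alfp-Cre, and no transgene is named for WT. In Alfp-Cre mice, albumin and α-fetoprotein control elements drive Cre recombinase in the epithelial lineage of the liver, so blood, endothelial and stromal cells keep the gene. The age of the RNA livers is given as 60 days after birth by the sample labels and as E18.5 by the description of the series. Afp, the fetal plasma protein α-fetoprotein, was at 499143 to 706964 normalised reads in the 3 WT libraries. The labels do not say whether the RNA replicates were separate animals, and the column names mark them with the letters BR, which the sources used here do not spell out, so the spread between them may be technical.

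C/EBPα is a leucine zipper protein that binds DNA as a dimer, and HNF4α is a nuclear receptor. Both switch on genes of mature hepatocytes, and HNF4 proteins are also active in the epithelium of the intestine. Hepatocytes, bile duct cells and the linings of stomach, intestine and airway all descend from the endoderm of the embryo, and each keeps the genes of the others largely silent. The 6 genes encode a secreted protein of mucus surfaces (Bpifb1), a lectin (Lgals2), a digestive protease (Cym), an enzyme of acid and bicarbonate balance (Car7), a chloride channel family protein (Clic6) and a lipid carrier (Fabp2).

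Regions bound in ChIP-seq spanned the start of 2 of the 6 genes, and the 250 bases before these starts are shown for that reason. The sequences are from RefSeq (GRCm38.p6), which held promoters of 5 of the 6 genes, and they are written 5′ to 3′ in the direction of the gene. Capitals mark matches on either strand to TTGCNNAA, a form of the C/EBP motif, and to CAAAGNNCA or CAAAGTCC, forms of the HNF4 motif. The last of these was added after the sequences had been read.
Fabp2 (chr3:122894822-122895071, plus strand): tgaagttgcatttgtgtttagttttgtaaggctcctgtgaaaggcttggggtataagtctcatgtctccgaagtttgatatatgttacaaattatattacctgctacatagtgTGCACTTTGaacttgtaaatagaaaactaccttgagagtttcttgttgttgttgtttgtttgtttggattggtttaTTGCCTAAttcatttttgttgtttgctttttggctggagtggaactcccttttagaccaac
Lgals2 (chr15:78855530-78855779, minus strand): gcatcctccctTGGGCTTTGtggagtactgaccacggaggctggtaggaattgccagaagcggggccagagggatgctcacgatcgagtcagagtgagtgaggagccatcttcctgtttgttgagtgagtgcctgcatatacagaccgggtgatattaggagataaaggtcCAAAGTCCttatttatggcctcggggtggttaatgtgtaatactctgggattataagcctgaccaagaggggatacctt
In the Fabp2 sequence, a C/EBP match began 61 bases before the start and an HNF4 match, on the other strand, 137 bases before it. In the Lgals2 sequence, CAAAGTCC began 79 bases before the start and the CAAAGNNCA match, on the other strand, 239 bases before it, and no C/EBP match was present. Of 32851 RefSeq promoter windows of this length, 9.56% held TTGCNNAA, 5.49% held CAAAGNNCA and 1.2% held CAAAGTCC. The windows of Bpifb1, Cym and Car7 held none of the 3 strings. The Cym window held TATAAA, the TATA box core, 29 bases before the start, which 12.4% of the windows hold. These matches are letters in a window and were not tested for binding.

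The deposited RNA values are reads per gene divided by a size factor for each library, rounded to whole numbers, with totals of 13448347 to 25992243 normalised reads per library. Differences are on the log2(value + 1) scale with their standard error (SE), from limma fitted over all 17771 genes that reached 10 in at least 2 libraries. A gene was called at a Benjamini-Hochberg adjusted p under 0.05 over all of these genes. Cebpa was at 6.93% of its WT mean in the C/EBPαKO and Hnf4a at 26.6% of its WT mean in the HNF4αKO, where reads outside the deleted part may be included. Hnf4a was also at 45.9% of its WT mean in the C/EBPαKO (limma adjusted p = 0.188). Cebpa was at 50.1% of its WT mean in the HNF4αKO (limma adjusted p = 0.299), and neither of these passed. In the C/EBPαKO 157 genes were called higher and 509 lower, and when values were scaled by library totals these became 474 and 324. The total of 666 was 311 without WT replicate 1, 402 without WT replicate 2 and 406 without C/EBPαKO replicate 1. The 836 genes called in the HNF4αKO became 238 without HNF4αKO replicate 1, 530 without HNF4αKO replicate 2, 372 without WT replicate 1, 504 without WT replicate 3 and 1372 without C/EBPαKO replicate 3. HNF4αKO replicate 1 stands apart: its 13 skeletal muscle markers summed to 683512, against 293 to 1937 in the other 7 libraries. The HNF4αKO differences of Bpifb1, Lgals2, Cym, Car7, Clic6 and Fabp2 are therefore also given without it. For the other genes and the gene lists below, HNF4αKO differences and calls include this library. Whether those calls hold without it is not shown.

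All 6 genes were higher in every C/EBPαKO library than in every WT library, as were 8.54% of all genes tested, and also higher than in every HNF4αKO library, as were 17.4% of all genes tested. The rise was described by log2 differences of 8.17 for Bpifb1, 6.71 for Lgals2, 5.55 for Cym, 5.49 for Car7, 5.35 for Clic6 and 3.14 for Fabp2. By size of the difference they stood at ranks 2, 5, 7, 9, 16 and 141 among the genes measured. All 6 passed the call for higher values, as did 0.883% of all genes tested; since this contrast chose them, nothing is read from that count. In liver tissue, a change in the number of cells of a type and a change in RNA per cell cannot be told apart. All 6 genes passed the filter on low values, but Bpifb1 and Lgals2 did so only through the C/EBPαKO libraries, and the other 4 would have passed on the WT and HNF4αKO libraries alone.

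**Figure D1:**
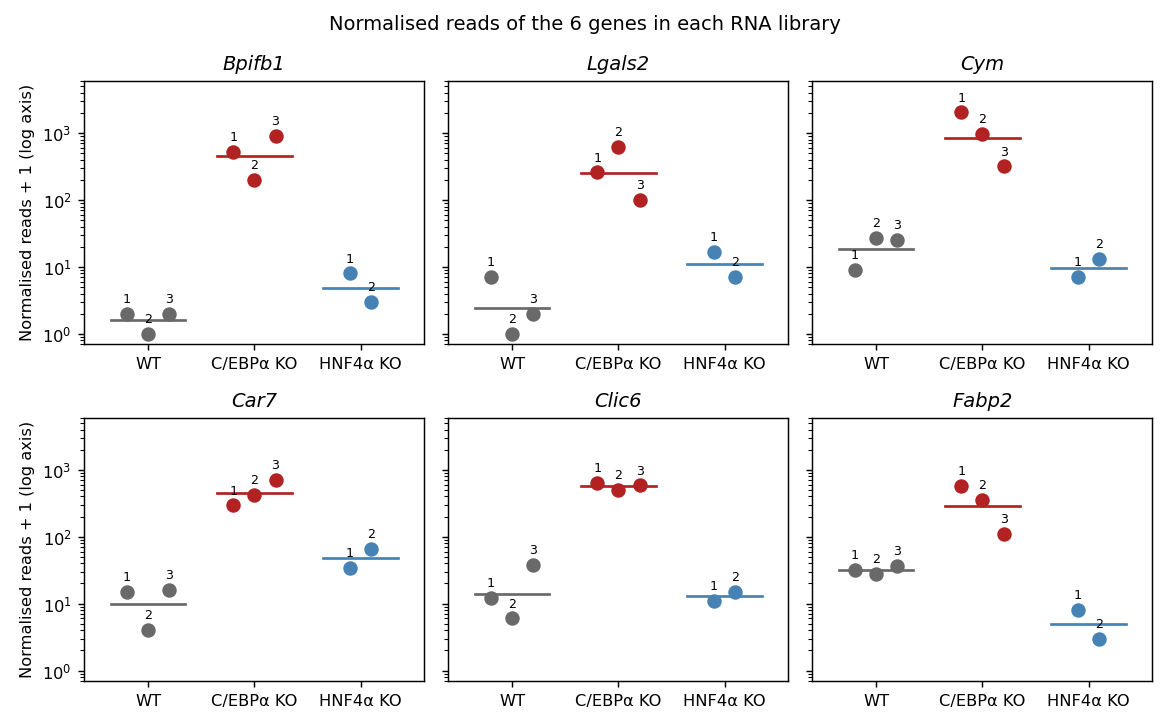
Normalised reads plus 1 (log axis) of the 6 genes in each RNA library; points are single libraries with their replicate number, and bars are means of the log values. The C/EBPαKO libraries (3) lie above all WT (3) and HNF4αKO (2) libraries in each panel, and replicate 3 is the highest of them for Bpifb1 and Car7 and the lowest for Cym, Lgals2 and Fabp2.

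Bpifb1 (ENSMUSG00000027485, chr2:154016554-154046105, plus strand, mm9) encodes a secreted protein of the BPI fold family that is abundant in the mucus of the upper airway. Its values were 1, 0 and 1 in WT, 523, 198 and 919 in the C/EBPαKO, and 7 and 2 in the HNF4αKO. It was thus barely detected in WT and reached 198 or more in each C/EBPαKO library. On the log2 scale the difference was 8.17 ± 0.77 (SE, n = 3 and 3). Both HNF4αKO libraries were above all 3 WT libraries, by 1.63 ± 0.86 (n = 2 and 3), or 0.92 without HNF4αKO replicate 1, at values under 10 in all 5 libraries.

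Lgals2 (ENSMUSG00000043501, chr15:78681292-78685959, minus strand) encodes galectin-2, a lectin that binds β-galactosides and is known from the epithelium of the gastrointestinal tract. It was at 6, 0 and 1 in WT, 258, 617 and 99 in the C/EBPαKO, and 16 and 6 in the HNF4αKO. The lowest C/EBPαKO library was 6.19 times the highest of the other 5. The C/EBPαKO differed from WT by 6.71 ± 0.90. In the HNF4αKO the difference was 2.18 ± 1.01, with replicate 2 level with the highest WT library, and 1.54 without HNF4αKO replicate 1.

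Cym (ENSMUSG00000046213, chr3:107014211-107024650, minus strand) encodes chymosin, the aspartic protease that curdles milk in the stomach of suckling mammals. Its values were 8, 26 and 24 in WT, 2033, 965 and 317 in the C/EBPαKO, and 6 and 12 in the HNF4αKO. C/EBPαKO replicate 1 was 6.41 times replicate 3, the widest spread of the 6 genes in that group, and replicate 3 was still 12.2 times the highest other library. The C/EBPαKO differed from WT by 5.55 ± 0.71. The HNF4αKO libraries overlapped WT and differed by -0.94 ± 0.80 (limma adjusted p = 0.533), or -0.49 without HNF4αKO replicate 1.

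Car7 (ENSMUSG00000031883, chr8:107058600-107074243, plus strand) encodes a cytosolic carbonic anhydrase, an enzyme that interconverts carbon dioxide and bicarbonate. It was at 14, 3 and 15 in WT, 292, 415 and 714 in the C/EBPαKO, and 33 and 65 in the HNF4αKO. No groups overlapped: both HNF4αKO libraries lay between WT and the C/EBPαKO. The C/EBPαKO differed from WT by 5.49 ± 0.64. The HNF4αKO differed from WT by 2.26 ± 0.72, which had an unadjusted p of 0.00909 and did not pass after adjustment (limma adjusted p = 0.104); it was 2.74 without HNF4αKO replicate 1.

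Clic6 (ENSMUSG00000022949, chr16:92485981-92541488, plus strand) encodes a chloride intracellular channel protein known from epithelia that secrete water and ions. Its values were 11, 5 and 37 in WT, 632, 499 and 582 in the C/EBPαKO, and 10 and 14 in the HNF4αKO. The C/EBPαKO libraries were within 1.27 times of each other, the narrowest spread of the 6 genes, while WT replicate 3 was the highest of the 3 WT libraries. The C/EBPαKO differed from WT by 5.35 ± 0.65. The HNF4αKO lay within the WT range and differed by -0.12 ± 0.72 (limma adjusted p = 0.94), or 0.10 without HNF4αKO replicate 1. The table gives this gene a span of 55.5 kb and RefSeq one of 43.1 kb, so distances to its start depend on the annotation.

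Fabp2 (ENSMUSG00000023057, chr3:122597990-122602424, plus strand) encodes the intestinal fatty acid binding protein, which carries long-chain fatty acids in the cytosol of enterocytes. It was at 31, 27 and 36 in WT, 576, 358 and 109 in the C/EBPαKO, and 7 and 2 in the HNF4αKO. The 3 groups did not overlap, with the C/EBPαKO above WT and the HNF4αKO below it. The C/EBPαKO differed from WT by 3.14 ± 0.67, and its lowest library was 3.03 times the highest WT library. The HNF4αKO differed from WT by -2.71 ± 0.75, which had an unadjusted p of 0.00418 and did not pass after adjustment (limma adjusted p = 0.0668). Without HNF4αKO replicate 1 the difference was -3.42 (adjusted p = 0.14). When C/EBPαKO replicate 3 was left out of the shared estimate of spread, it passed (adjusted p = 0.0242).

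The HNF4αKO columns took no part in the choice of the genes, though the comparison uses the same WT libraries. Bpifb1 and Lgals2 were admitted by the C/EBPαKO libraries, so no test of them is given. In limma 0 of the other 4 genes were called in the HNF4αKO, against 1.54% of all genes tested called higher and 3.17% called lower. An unadjusted p under 0.05 was found for 2 of the 4, Car7 and Fabp2. The share of all genes tested at that threshold was not determined in either knockout. Nothing is therefore read from this count, nor from the counts at an unadjusted p under 0.05 in the gene lists below. Bpifb1 and Car7 lay above every WT library, as did 22.1% of all genes, and Fabp2 lay below every WT library, as did 22.4%. By mean log2 value 3 of the genes were higher than WT and 3 were lower, with Clic6 changing sign when WT replicate 3 or HNF4αKO replicate 1 was left out. The order among the C/EBPαKO libraries also differed, with Cym, Clic6 and Fabp2 highest in replicate 1, Lgals2 in replicate 2 and Bpifb1 and Car7 in replicate 3. As a description over the 8 libraries, which include those that chose the genes, Pearson's r between pairs of the genes ranged from 0.57 (Car7 and Fabp2) to 0.95 (Bpifb1 and Clic6).

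**Figure D2:**
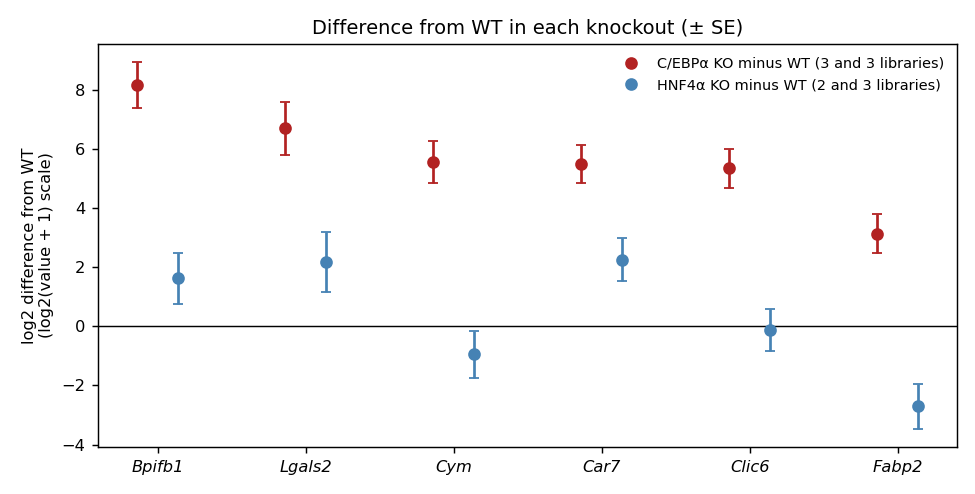
Log2 differences from WT (vertical axis, log2(value + 1) scale, ± SE) of the 6 genes in the C/EBPαKO (red) and the HNF4αKO (blue). The red points run from 3.14 to 8.17 and are a description, and the blue points run from -2.71 (Fabp2) to 2.26 (Car7).

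Binding was read from regions where peaks of both replicates overlapped, and distances run from the gene start in the table (mm9) to the nearest edge of a region. Within 10 kb of the start, all 6 genes had an HNF4α region at 1 or more stages, as did 46.9% of all genes in the table, 63.9% of the genes tested and 32.6% of the genes with a WT mean under 10. At E15.5 alone all 6 had one, against 34.6%, 49.6% and 22.2%. All 6 genes are among the genes tested, and Bpifb1 and Lgals2 have a WT mean under 10. For C/EBPα, 3 of the 6 genes (Cym, Car7 and Fabp2) had a region at 1 or more stages, against 62.1% of all genes, 80.7% of the genes tested and 46.9% of those with a WT mean under 10. At E15.5 none of the 6 had a C/EBPα region, where 13.6% of all genes, 19.9% of the genes tested and 8.25% of those with a WT mean under 10 had one. The C/EBPα share of the 6 genes over all stages, 50.0%, was below that of the genes tested and of all genes and above that of the genes with a low WT mean, and no test was made of either factor.

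The count of genes with an HNF4α region at E15.5 was 6 in either replicate alone, against 43.6% of all genes in replicate 1 and 36.3% in replicate 2, and 4 with a window of 5 kb, against 25.3%. The C/EBPα count of 3 became 5 when a peak of either replicate was enough, when Clic6 and Lgals2 joined at P0.5, against 73.1% of all genes. With a window of 50 kb it was 6, against 85.8%. It was 5 with replicate 2 alone, against 70.2%, and 4 with replicate 1 alone, against 67.8%. Among the 151 other genes called higher in the C/EBPαKO, 57.0% had an HNF4α region at E15.5 and 74.2% a C/EBPα region at some stage. Among the 509 genes called lower these shares were 80.0% and 96.1%.

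HNF4α regions lay within 10 kb of 3 of the 6 genes at E18.5, 5 at P0.5, 3 at P14 and 4 at P60, against 15.1%, 27.1%, 26.2% and 32.9% of all genes. C/EBPα regions lay within 10 kb of 3 genes at E18.5, 3 at P0.5, 2 at P14 and 3 at P60, against 47.6%, 58.7%, 34.0% and 36.4% of all genes. The lists differ in length between stages, with 10419 C/EBPα regions at E15.5 and 34737 to 94619 later, and 18359 to 36322 HNF4α regions over the 5 stages, so the counts were not compared between stages. The replicates of HNF4α at E18.5 shared few peaks, 35.6% of one list and 46.0% of the other, and a peak of either replicate was near 5 genes at that stage, against 33.5% of all genes. The 2 deposited HNF4α lists of P0.5 held the same peaks and were counted as 1. Every listed HNF4α peak of P0.5 thus counted as a region, with no check between replicates at that stage.

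**Figure D3:**
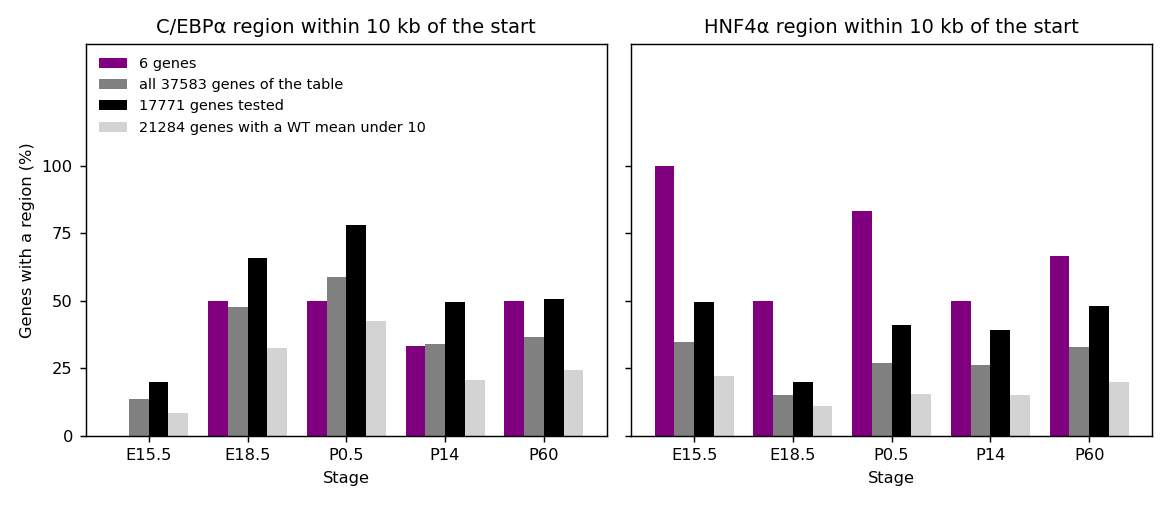
Share of genes (vertical axis, %) with a bound region within 10 kb of the start at each stage, for C/EBPα (left) and HNF4α (right), among the 6 genes (purple), all 37583 genes (dark grey), the 17771 genes tested (black) and the 21284 genes with a WT mean under 10 (light grey). For HNF4α the purple bar is at 100% at E15.5, and for C/EBPα it is at 0% at E15.5 and between 33.3% and 50.0% afterwards.

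In the windows of 10 kb, regions of both factors and all stages merged into 13 sites, of which 5 held HNF4α alone, 4 held C/EBPα alone and 4 held both. The sites with both factors belonged to Cym and Fabp2. Of the sites, 7 held HNF4α at E15.5.

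At Fabp2 a site over the gene start (chr3:122597633-122598939) held HNF4α at E15.5, P0.5, P14 and P60 and C/EBPα at E18.5, P0.5, P14 and P60. Its regions differed in how far they reached into the bases printed above. The HNF4α region of E15.5 began 43 bases before the start, and those of P0.5, P14 and P60 began 253, 357 and 283 bases before it. The C/EBPα region of E18.5 began 201 bases after the start, and those of P0.5, P14 and P60 began 254, 337 and 291 bases before it. By distance from the start, the printed C/EBP and HNF4 matches thus lay within the regions of P0.5, P14 and P60, and neither within the HNF4α region of E15.5 nor within the C/EBPα region of E18.5; this takes the RefSeq start and that of the table to be the same. Another site, 6.16 kb upstream (chr3:122590211-122591832), held HNF4α at E15.5, P14 and P60 and C/EBPα at P0.5, P14 and P60. At both sites HNF4α was listed at E15.5 and C/EBPα was not.

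At Cym a site 7.27 kb upstream of the start (chr3:107031916-107034163) held HNF4α at every stage except P0.5 and C/EBPα at every stage except E15.5. A site 1.25 kb upstream (chr3:107025895-107026771) held HNF4α at P0.5 and P14 and C/EBPα at P14. C/EBPα alone was listed at 2 sites inside the gene, 2.9 and 4.36 kb from the start, at E18.5 and P0.5.

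At Car7 C/EBPα and HNF4α occupied separate sites inside the gene. C/EBPα was at a site 0.643 kb downstream of the start (chr8:107059243-107060065) at E18.5, P0.5 and P60, and at another 96 bp downstream at P0.5. HNF4α was at a site 5.91 kb downstream (chr8:107064512-107065462) at E15.5, P0.5 and P14. The start of Nae1, which encodes a subunit of the enzyme that activates NEDD8, lies 63 bp from that of Car7, so the C/EBPα sites are near both starts.

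The remaining 3 genes had no region within 10 kb where C/EBPα peaks of both replicates overlapped, at any stage. At P0.5 each replicate had 1 C/EBPα peak within 10 kb of the Clic6 start, and these peaks did not overlap. Bpifb1 had 1 site, 395 bp upstream (chr2:154015218-154016159), with HNF4α at E15.5, E18.5 and P0.5. Clic6 had 1 site, 1.12 kb downstream inside the gene (chr16:92487106-92488056), with HNF4α at E15.5, E18.5, P0.5 and P60. Lgals2 had HNF4α over its start at E15.5 (chr15:78685783-78686277), the sequence printed above, and 6.6 kb downstream at P60. At Bpifb1 HNF4α was thus listed at the 3 early stages and not at P14 or P60.

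**Figure D4:**
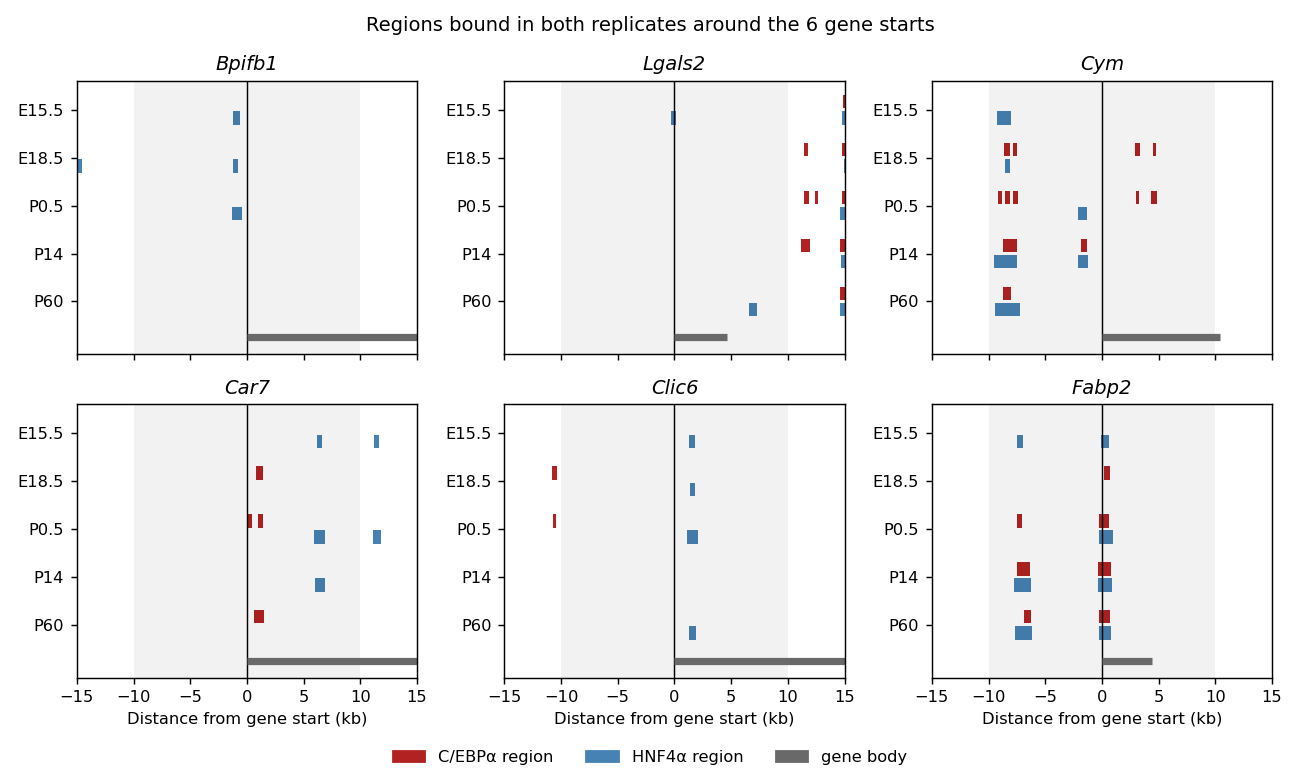
Regions bound in both replicates around the 6 gene starts, by distance from the start (horizontal axis, kb, in the direction of the gene) and stage (vertical axis), for C/EBPα (red) and HNF4α (blue), with the gene body as a dark bar and the window of 10 kb shaded. HNF4α (blue) is present in every panel at E15.5, and C/EBPα (red) lies inside the shaded window for Cym, Car7 and Fabp2. The HNF4α regions of P0.5 come from identical lists and so were not checked between replicates.

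The neighbours of the 6 genes were mostly not called. Of 35 genes with a start within 100 kb, 21 were tested and 1 was called higher in the C/EBPαKO. This was Cdh16, a cadherin of kidney tubules, 89.7 kb downstream of the start of Car7, at 0, 0 and 5 in WT, 349, 178 and 262 in the C/EBPαKO and 6 and 10 in the HNF4αKO (limma adjusted p = 0.000489). Cdh16 reached the filter only through the C/EBPαKO libraries, so its call is given as a description. Nae1 was at 258, 241 and 392 in WT and 458, 505 and 207 in the C/EBPαKO, a difference of 0.32 that did not pass (adjusted p = 0.81), and Pdp2, 56.8 kb downstream of the start of Car7, did not pass either (0.901). Bpifb1 lies in a cluster of BPI fold genes: none of its 6 neighbours reached the filter, and the nearest, Bpifa5 at 28.2 kb upstream and Bpifb5 at 32.9 kb downstream, were listed at 0 in all WT libraries. Near Cym, Prok1, which encodes the secreted peptide prokineticin 1 and starts 18.0 kb upstream, was called lower in the HNF4αKO, at 77, 43 and 70 in WT and 0 and 1 there (log2 difference -5.46, adjusted p = 0.00242).

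The nearest tested neighbours of the other 3 genes did not pass in the C/EBPαKO. For Lgals2 these were Cdc42ep1, 12.9 kb downstream (adjusted p = 0.441), and Gga1, 21.7 kb upstream (0.96). For Clic6 it was Rcan1, 19.6 kb upstream (0.94). For Fabp2 these were Gm9364, 33.2 kb upstream (0.921), and 1810037I17Rik, 29.3 kb downstream (0.996).

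With the 6 genes left out, no tested member of their gene families was called higher in the C/EBPαKO. Of 16 other genes of the BPI fold family 2 reached the filter, and Lbp, the lipopolysaccharide binding protein of hepatocytes, was called lower at 2629, 2872 and 2644 in WT and 321, 411 and 1476 in the C/EBPαKO (-2.22 ± 0.49, limma adjusted p = 0.0293). Of 11 other carbonic anhydrases tested, Car3 (-3.64 ± 0.70, adjusted p = 0.0137) and the mitochondrial Car5a (-3.15 ± 0.71, adjusted p = 0.032) were called lower. In limma 0 of 6 galectins, 0 of 5 aspartic proteases, 0 of 4 chloride intracellular channels and 0 of 8 fatty acid binding proteins were called in either direction in the C/EBPαKO. At an unadjusted p under 0.05, 2 galectins were lower, 1 aspartic protease was higher (Ctse, a difference of 1.38, adjusted p = 0.257), and of the fatty acid binding proteins 1 was higher (Fabp7, 3.29, adjusted p = 0.122) and 2 were lower, with 0 chloride intracellular channels. The family members with the highest WT means, Pltp, Lgals9, Lgals3bp, Ctsd, Ctse, Car2, Car8, Clic4, Clic1, Fabp5 and Rbp2, had adjusted p-values from 0.202 (Car8) to 0.931 (Clic4). Fabp1, the liver form of Fabp2, was at 4307, 9203 and 4028 in WT, 3280, 4002 and 2301 in the C/EBPαKO, and 1072 and 820 in the HNF4αKO. It was called lower in the HNF4αKO (-2.53 ± 0.44, adjusted p = 0.00742) and not in the C/EBPαKO (-0.80 ± 0.39, adjusted p = 0.396).

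Fabp2 works beside other genes of lipid uptake in the gut. Of 17 such genes tested, 1 was called higher in the C/EBPαKO, Npc1l1, the cholesterol uptake protein of enterocytes, which was listed at 0 in WT and the HNF4αKO and at 33, 18 and 8 in the C/EBPαKO (limma adjusted p = 0.0389). Npc1l1 reached the filter only through the C/EBPαKO libraries, so its call is given as a description. Abcg5 and Abcg8, which together pump sterols out of cells, were called lower, by -5.39 ± 0.91 (adjusted p = 0.00655) and -5.48 ± 0.64 (adjusted p = 0.000629). In the HNF4αKO 5 of the 17 were called lower: Apob, the protein of chylomicrons and very-low-density lipoprotein (-4.96 ± 0.70, adjusted p = 0.00242), Abcg5, Mttp, Fabp1 and Acsl5. The list's median difference was -0.8 in the C/EBPαKO, where that of all genes was 0.03.

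Marker lists checked whether the 6 genes came with a wider set of gut or airway genes in the C/EBPαKO. Of 30 intestine markers 19 were tested and 2 were called higher, with a median difference of 1.08. At an unadjusted p under 0.05, 6 were higher and 3 lower. The called genes were Vil1, the actin bundler of microvilli, at 23, 56 and 39 in WT and 329, 336 and 308 in the C/EBPαKO (3.10 ± 0.47, limma adjusted p = 0.00326), and Krt20, a keratin of gut epithelium (2.05 ± 0.45, adjusted p = 0.0283). Krt20 was called lower in the HNF4αKO (-2.11 ± 0.50, adjusted p = 0.0378), which is the pair of directions seen in the values of Fabp2. The count of 2 was 1 without WT replicate 1, WT replicate 2, C/EBPαKO replicate 1 or C/EBPαKO replicate 2. Defining genes of enterocytes were near 0 in all 8 libraries: the transcription factors Cdx1 and Cdx2 and the sucrase gene Sis reached at most 1 read and the phosphatase gene Alpi at most 2. Fabp6, Defa24 and Reg3b were at 0 throughout. The intestine markers with the highest WT means, Rbp2 (-0.95, adjusted p = 0.628) and Olfm4 (-0.84, adjusted p = 0.221), did not pass. Cdh17, a cadherin of the intestine, was at 3, 6 and 0 in WT and 64, 42 and 25 in the C/EBPαKO (3.78, adjusted p = 0.0974) and did not pass either, and neither did Fcgbp (3.02, adjusted p = 0.112), Guca2a (3.01, 0.21) and Mep1a (2.04, 0.346).

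Of 25 stomach markers 9 were tested, with a median difference of 1.51, 1 was called higher, and 4 were higher and 0 lower at an unadjusted p under 0.05. The called gene was Cldn18, a claudin of tight junctions in stomach and lung, at 0 in all WT and HNF4αKO libraries and 519, 239 and 570 in the C/EBPαKO (limma adjusted p = 7.07e-05). Cldn18 reached the filter only through the C/EBPαKO libraries, so its call is given as a description. Tff1, Pga5, Gkn2 and Sox2 were at 0 in all 8 libraries. The protease gene Ctse (1.38, adjusted p = 0.257) and the mucin gene Muc6 (1.51, adjusted p = 0.654) did not pass. Krt4, a keratin of stratified epithelium, was at 0, 0 and 4 in WT and 17, 15 and 54 in the C/EBPαKO (3.88, adjusted p = 0.0685), which did not pass. The proton pump gene Atp4a was called higher in the HNF4αKO (3.16 ± 0.61, adjusted p = 0.0133). Of 25 airway and lung markers 12 were tested, 0 were called higher in limma, and 0 were higher and 1 lower at an unadjusted p under 0.05. Cyp2f2, a cytochrome P450 of club cells that liver also expresses, was called lower in the C/EBPαKO (-2.96 ± 0.57, adjusted p = 0.0141) and in the HNF4αKO (-5.04 ± 0.64, adjusted p = 0.00127). The surfactant gene Sftpc and the secretoglobin gene Scgb3a2 were at 0 throughout, and Scgb1a1 reached at most 2 reads.

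Of 15 bile duct markers tested, 6 were called higher in the C/EBPαKO, as were 0.883% of all genes tested. That is the group on which the 6 genes were chosen. The median difference over the 15 was 2.23, where that of all genes was 0.03. At an unadjusted p under 0.05, 13 were higher and 0 lower, with no share of all genes to set beside them. The called genes with the largest differences were Cldn4, Cldn7, Sox9 and Prom1, while Cdh6 (4.88, limma adjusted p = 0.0528) and Sctr (4.51, adjusted p = 0.122) did not pass. Cldn4 was at 14, 0 and 16 in WT and 100, 160 and 1064 in the C/EBPαKO (5.35 ± 1.11, limma adjusted p = 0.0213), and Sox9, a transcription factor of bile duct cells, at 122, 246 and 460 and then 1016, 5477 and 1039 (2.90 ± 0.65, adjusted p = 0.031). The sum over the 18 markers ranged from 9279 to 11403 in WT, from 17864 to 27083 in the C/EBPαKO and from 15164 to 16203 in the HNF4αKO. Against WT, 0 of the 15 were called in the HNF4αKO in limma, with a median difference of 0.38. There 1 was higher and 1 lower at an unadjusted p under 0.05. The count of 6 was 1 without WT replicate 1 or WT replicate 2 and 3 without C/EBPαKO replicate 3, and with values scaled by library totals it was 11. Aqp1 (0.32, adjusted p = 0.777) and Tm4sf4 (0.21, adjusted p = 0.931), the duct markers with the highest WT means, did not pass. The part of bile duct cells in the levels of the 6 genes was not tested.

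The remaining lists hold markers of other organs, transcription factors of the gut and markers of the cell types of liver. Of 5 kidney tubule markers tested, Cdh16 and Cubn, the receptor cubilin, were called higher in limma. Both reached the filter only through the C/EBPαKO libraries, so these calls are given as a description. At an unadjusted p under 0.05, 2 kidney tubule markers were higher and 2 lower, with a median difference of -1.05 over the list. Of 6 pancreas markers, 0 were called in either direction in limma, with 1 lower at an unadjusted p under 0.05. Slc12a3 (adjusted p = 0.0637), Pax8 (0.293), Cela1 (0.211) and Bhlha15 (0.543), the markers of these lists with the highest WT means, did not pass. Among 19 transcription factors of the gut, Sox9 and Gata6 (1.79 ± 0.36, adjusted p = 0.0181) were called higher and Foxq1 (-3.27 ± 0.76, adjusted p = 0.036) lower, while Onecut2 (adjusted p = 0.699) and Foxa3 (0.848) did not pass. Of 15 hepatocyte markers 6 were called lower, with a median of -3.02, among them Cps1, Tat, Fgg and Fga; Alb (-2.69, adjusted p = 0.485) and Afp (-1.36, adjusted p = 0.665) did not pass. In limma 0 of 11 skeletal muscle, 14 erythroid, 12 macrophage, 12 endothelial and 11 stellate cell and fibroblast markers were called in the C/EBPαKO, with 0, 1, 0, 0 and 1 at an unadjusted p under 0.05.

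**Figure D5:**
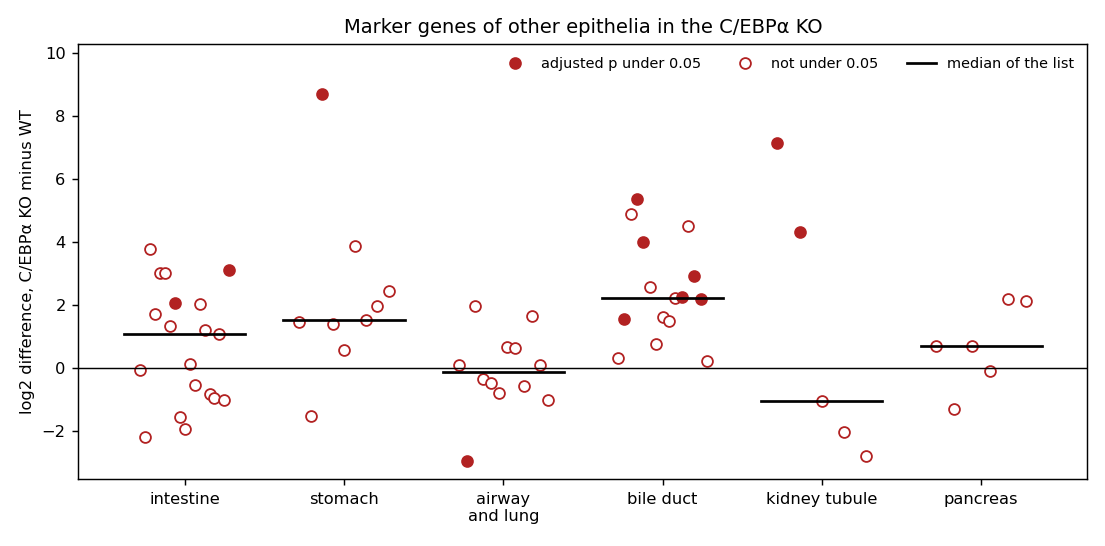
Log2 differences (vertical axis, C/EBPαKO minus WT) of the tested markers in 6 lists, with filled points for genes called at an adjusted p under 0.05 and a line at each list's median. The medians are 1.08 for intestine, 1.51 for stomach, -0.13 for airway and lung, 2.23 for bile duct, -1.05 for kidney tubule and 0.69 for pancreas.

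The genes most like the 6 over the 8 libraries, by Pearson's r to the mean of their standardised log2 values, were Tbx10 (0.990), Cldn2 (0.987), Ifi27l2b (0.986), Cldn18 (0.984) and Fam149a (0.983). Cldn2, a claudin that forms pores for cations, was at 68, 42 and 106 in WT, 657, 509 and 577 in the C/EBPαKO and 62 and 81 in the HNF4αKO. For single genes the most like were Cldn18 and Slc47a2 for Bpifb1 (0.976 and 0.975), Pola2 and Ccnd1 for Lgals2 (0.968 and 0.960), and 4930405D11Rik and Hsd3b4 for Cym (0.983 and 0.981). They were Trmt2a and Chtf18 for Car7 (0.990 and 0.973), Cldn2 and Fam149a for Clic6 (0.997 and 0.992), and Gm5549 and Smarca1 for Fabp2 (0.989 and 0.962). Gm5549 followed Fabp2 in both knockouts, at 21, 21 and 36 in WT, 325, 286 and 75 in the C/EBPαKO and 4 and 0 in the HNF4αKO. These values of r are descriptions over the libraries that chose the 6 genes.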

How the data were processed

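The submitters' processing notes name TopHat2, Cufflinks, DESeq, BWA, bedtools and MACS 1.4, with no roles, and the genome build mm9. The RNA values are deposited scores per gene: the authors' DESeq-normalised reads, rounded to whole numbers. The values in all 8 single-library files equalled those of the series table. The deposited peak lists hold positions only, with no height used.

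Values were analysed as log2(value + 1) in limma 3.58.1 (R 4.3.3) with a variance trend, 2-sided, with all 8 libraries in 1 fit. The fit was tested on simulated data. The 6 genes, the gene lists and the alternatives were chosen with earlier results of these data known. Named were the 6 genes, the neighbours called or nearest, the genes of highest r, and in each list the genes called (at most 4 per direction) and the 2 with the highest WT mean; defining markers near 0, Bpifa5, Bpifb5, Acsl5, Cdh17, Fcgbp, Guca2a, Mep1a, Krt4, Cdh6, Sctr and Fabp7 were named after their values were seen. Same-numbered libraries did not deviate together (r from -0.23 to 0.19), so numbers were not used as pairs. RNA polymerase II and input samples were not used here.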

Additional observations from a re-analysis of the deposited data

Results flagged for a closer look

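Fabp2 was above every WT library in all 3 C/EBPαKO libraries and below every WT library in both HNF4αKO libraries, where the log2 difference from WT was -2.71. The difference between the knockouts was not tested, since the C/EBPαKO columns chose the gene.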

How the results depend on the processing

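Depth limits Bpifb1 and Lgals2 in WT, where sums over 3 libraries were 2 and 7 reads. In the C/EBPαKO the log2 differences of the 6 genes ran from 2.63 (Fabp2) to 8.78 (Bpifb1) over the 16 alternatives. Every C/EBPαKO library was above every WT library for these genes, which were chosen on this contrast. Leaving out a library could thus not change the sign, and nothing is read from the sign staying the same. Scaling by library totals moved the median of all genes from 0.026 to 0.533, and the 6 differences then ran from 3.65 (Fabp2) to 8.58 (Bpifb1). In the HNF4αKO, of Cym, Car7, Clic6 and Fabp2 no gene but Fabp2 passed under any alternative (Car7 adjusted p from 0.084 to 0.356, Fabp2 from 0.0242 to 0.288). With only 2 groups in the fit, Bpifb1 and Lgals2 did not reach the filter. The Clic6 difference in the HNF4αKO changed sign to 0.25 with the replicate block, 0.60 without WT replicate 3, 0.60 without WT replicate 3 and C/EBPαKO replicate 1 together, and 0.10 without HNF4αKO replicate 1 (-0.73 to 0.60 with 1 library left out); the cause was not tested. Genes called in the C/EBPαKO numbered 509 with the replicate block, 311 to 804 with 1 library left out, and 216 without WT replicate 3 and C/EBPαKO replicate 1 together. Those in the HNF4αKO numbered 486 with the replicate block, 1475 with 2 groups in the fit, 238 to 1372 with 1 library left out and 347 without that pair. Same-numbered libraries are not known to be pairs, and WT replicate 3 deviated most like C/EBPαKO replicate 1 (r = 0.49). Intestine markers called higher were 1 without the variance trend, 1 with the replicate block, 0 without that pair of libraries and 1 to 2 with 1 library left out. Stomach markers were 2 with library totals and 2 without the variance trend, and 1 with any 1 library left out. Bile duct markers were 11 with library totals, 3 with no filter, 1 without the variance trend, 1 without that pair and 1 to 8 with 1 library left out. Genes with a C/EBPα region were 6 within 50 kb, 5 with a peak of either replicate and 4 to 5 in a single replicate, and at E15.5 1 within 50 kb; the stage counts at E15.5 under these settings were added after seeing the data. Leaving out HNF4αKO replicate 1 or 2 left 1 library, taken to vary like the other groups.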
